A study of Mus musculus with 6 samples.

Results

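The ovaries of mice with untreated ovarian hyperstimulation syndrome (OHSS) were set against all other ovaries of the study taken as 1 group. The aim was to look for transcripts high or low in untreated OHSS alone, although a difference from that group can also rest on only a part of it. The 2 OHSS libraries formed one side and the 4 remaining libraries, 2 from the group named COH and 2 from OHSS mice given nintedanib, formed the pooled reference, which used 6 of the 6 libraries of the study. Every library was bulk RNA sequencing of ovary from ICR mice, an outbred strain. The labels do not spell out COH and give no age, dose or timing, and no label tells whether each library is a different mouse, so the spread between libraries may be technical. Nintedanib (also known as bibf1120) is a small-molecule inhibitor of the receptor kinases for fibroblast growth factor, platelet-derived growth factor and vascular endothelial growth factor (VEGF). Both the OHSS and the nintedanib mice carry the syndrome model, and the pool therefore joins animals with and without it. In bulk tissue, fewer cells of a type and less RNA per cell cannot be told apart.

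OHSS is a complication of hormonal stimulation of the ovary in which many follicles luteinize, the ovary enlarges and vessels become leaky, and VEGF released by luteinizing granulosa cells is held to drive that leak. Luteal cells make progesterone from cholesterol, which they take up with lipoproteins or build themselves through the mevalonate pathway, whose genes are switched on together by the transcription factor SREBP2 when cellular sterol is low. The steroid itself is begun in mitochondria, where CYP11A1 cleaves the cholesterol side chain. Endothelial cells make up the dense capillary bed that feeds each corpus luteum.

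Between 28498435 and 34716751 counts were held by each library, spread over 24712 to 25796 detected genes. The scaling factors were 0.961 and 0.978 in OHSS and 0.999 to 1.03 in the other 4 libraries, so they differed by the groups compared. The cell markers of an ovary were present in every library: all 6 granulosa, 6 theca and stroma, 5 luteal, 6 oocyte and 5 endothelial markers had counts in all 6 libraries. Traces of neighbouring tissue were low, with the 4 oviduct markers at a summed 1.44 to 4.60 counts per 1000000 (CPM) and Foxj1, Pax8 and Sntn at 0 in at least 1 library. The share of counts from mitochondrial genes was 6.80 and 7.10% in OHSS and 5.21 to 5.96% in the other 4 libraries.

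No gene was called in untreated OHSS against the pool. Of 19027 genes tested, 0 (0%) passed a Benjamini-Hochberg adjusted p of 0.05 in edgeR's quasi-likelihood test, the smallest adjusted p being 0.079, for Raver1 and the predicted gene Gm44503. At an unadjusted p below 0.05 there were 1171 genes (6.15%), of which 593 (3.12%) were higher and 578 (3.04%) lower in OHSS. Scaling by library size alone turned that even split into 390 higher and 991 lower, and moved the median log2 fold change of all genes from -0.01 to -0.08. Limma voom also called 0 genes and found 1129 at an unadjusted p below 0.05, whereas DESeq2 called 123 genes (0.646%), 68 higher and 55 lower. Both OHSS libraries lay outside the range of the other 4 for 3063 genes (16.1%), above it for 1427 (7.50%) and below it for 1636 (8.60%). If the groups made no difference, a share of 0.0667 of genes would lie above it and the same share below. An exact permutation test of 2 libraries out of 6 has 15 arrangements and cannot go below a one-sided p of 0.0667, so none is given per gene. Leaving out OHSS replicate 1 called 2 genes, Sh3pxd2a and Zfx, each low in OHSS replicate 2 alone, and leaving out OHSS replicate 2 called Pcdhga5, which was high in OHSS replicate 1 alone. The genes below are therefore described by their values, as genes that stood higher or lower, and not as called changes.

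The same libraries taken in pairs of groups show what pooling averages. OHSS against COH alone called 2 genes (0.0105%; 8.82% at an unadjusted p below 0.05), and OHSS against nintedanib called 1 (0.00526%; 7.42% unadjusted). Within the pool, nintedanib against COH called 5 genes (0.0263%; 9.70% unadjusted), so more genes passed either threshold between the COH and nintedanib libraries of the reference than between either of them and OHSS. These 3 comparisons share libraries with each other and with the pooled one.

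Among genes with at least 5 CPM on average and both OHSS libraries outside the other 4, the 15 with the smallest p in each direction are described here, arranged by what each is known to do; that arrangement was made after they were ranked and was not tested. Raver1, an RNA-binding protein that works with the splicing regulator PTB, stood at 56.1 and 59.5 CPM in COH, 60.9 and 62.1 with nintedanib and 126 and 126 in OHSS. Its level was 2.11-fold that of the pool (log2 fold change 1.08, SE 0.08), the OHSS libraries were nearly equal, and the other 4 were tightly grouped. A further ID that the table also names Raver1, ENSMUSG00000111497, went the other way, at 14.98 and 13.7 CPM in OHSS against 33.0 and 33.3 in COH and 36.0 and 39.9 with nintedanib (log2 fold change -1.31, SE 0.13, adjusted p = 0.15). Both IDs lie on the same strand and share exon sequence in GENCODE M21, where the latter is Gm38431, so reads there could be given to either and the split between them is uncertain. Added together, the IDs came to 89.1 and 92.8 CPM in COH, 96.9 and 102.1 with nintedanib and 141.0 and 139.8 in OHSS.

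Krr1, needed to build the small ribosomal subunit, stood at 46.6 and 47.1 CPM in COH, 43.9 and 42.8 with nintedanib and 19.9 and 16.1 in OHSS (log2 fold change -1.33, SE 0.13, adjusted p = 0.15). Both OHSS libraries were far below the rest, which lay within 5 CPM of each other, while Glipr1, which overlaps Krr1 on the opposite strand, stayed between 1.85 and 4.08 CPM in all 6 libraries. Rpl30, a protein of the large subunit, read 75.0 and 70.4 CPM in OHSS, 238 and 165 with nintedanib and 195 and 194 in COH (log2 fold change -1.44, SE 0.16). Its 11 near-identical copies make that level uncertain, and the copy Rpl30-ps10 stood at 12.2 and 15.9 CPM in COH, 0.555 and 13.3 with nintedanib and 23.3 and 19.1 in OHSS. Helz, an RNA helicase, stood at 24.1 and 27.8 CPM in OHSS against 57.5 and 52.9 in COH and 57.5 and 62.9 with nintedanib (log2 fold change -1.15, SE 0.12). Taf5l, a subunit of the SAGA-type histone acetyltransferase complex, had 37.1 and 38.7 CPM in COH, 32.3 and 34.9 with nintedanib and 10.0 and 14.4 in OHSS (log2 fold change -1.55, SE 0.18), with a near-identical copy, Gm13316, that could share its reads. For each of Krr1, Rpl30, Helz and Taf5l the OHSS libraries did not overlap the others, which the ranking required. The log2 difference between nintedanib and COH within the pool was between -0.17 and 0.13, and a ranking by p against the pool favours such small differences.

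Igf1r, the receptor through which insulin-like growth factor supports granulosa cells, stood at 200.4 and 185 CPM in COH, 203 and 185 with nintedanib and 293 and 343 in OHSS (log2 fold change 0.72, SE 0.10, adjusted p = 0.29). No reference library exceeded 203 CPM, and the ranking had required that the OHSS libraries not overlap the reference. Pgr, the progesterone receptor that granulosa cells switch on at ovulation, was low everywhere but highest in OHSS, at 15.9 and 14.2 CPM in OHSS, 5.76 and 6.17 with nintedanib and 3.04 and 4.10 in COH (log2 fold change 1.66, SE 0.29, adjusted p = 0.66). The nintedanib libraries lay between COH and OHSS, 2.08 log2 units separating OHSS from COH and 1.33 separating it from nintedanib. Wt1, a transcription factor of the ovarian surface, stroma and early granulosa cells, read 61.8 and 67.0 CPM in OHSS against 38.2 and 31.9 in COH and 40.9 and 34.7 with nintedanib (log2 fold change 0.82, SE 0.12). Amhr2, the receptor for anti-Müllerian hormone, pointed down, at 91.3 and 80.2 CPM in COH, 93.4 and 84.3 with nintedanib and 60.2 and 59.8 in OHSS (log2 fold change -0.54, SE 0.10). Its ligand Amh overlapped between groups, with 79.5 and 98.0 CPM in OHSS and 93.5 to 178 in the reference.

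Mgarp, a mitochondrial protein abundant in steroid-making cells, stood at 733 and 741 CPM in COH, 765 and 529.9 with nintedanib and 155 and 81.2 in OHSS. Its level in OHSS was lower by a log2 fold change of -2.55 (SE 0.32, adjusted p = 0.19), and the higher OHSS library lay far below the lowest reference library. Etfrf1, which controls the electron-transfer flavoprotein of the mitochondrial matrix, was higher at 52.8 and 47.3 CPM in OHSS, 28.2 and 30.0 with nintedanib and 26.0 and 26.1 in COH (log2 fold change 0.86, SE 0.11), and a gene on the opposite strand overlaps it. Vkorc1, which recycles vitamin K, read 40.3 and 35.2 CPM in OHSS against 23.6 and 19.6 in COH and 20.3 and 19.2 with nintedanib, and shares an exon with Gm21974 on its own strand. Txnip, an inhibitor of thioredoxin and of glucose uptake that overlaps Gm15441 on the opposite strand, was lower at 171 and 194 CPM in OHSS, 246 and 271 with nintedanib and 282 and 304 in COH (log2 fold change -0.60, SE 0.12). In all of these the OHSS libraries lay outside the other 4, as the ranking required, by a margin that ranged from narrow in Txnip to wide in Mgarp.

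Cdip1, a target of p53 linked to cell death, stood at 134 and 152 CPM in OHSS against 73.6 and 71.3 in COH and 73.4 and 78.4 with nintedanib (log2 fold change 0.95, SE 0.09, adjusted p = 0.15); the gene on the opposite strand, Hmox2, was between 32.0 and 47.3 CPM in all libraries. Mid1, a ubiquitin ligase on microtubules, read 21.7 and 17.9 CPM in COH, 18.9 and 24.0 with nintedanib and 52.6 and 47.6 in OHSS (log2 fold change 1.28, SE 0.14), with a near-identical pseudogene that makes its count uncertain. Ecm1, a secreted matrix protein, was abundant, at 1229 and 767 CPM in OHSS, 509.8 and 496 with nintedanib and 487 and 453 in COH. A2m, a circulating protease inhibitor, had 9.90 and 23.7 CPM in OHSS against 2.50 and 3.15 in COH and 4.61 and 2.21 with nintedanib, the OHSS libraries differing from each other more than the others did in absolute level. Stradb, Frk, Fam129a and Whrn were higher by log2 fold changes of 0.60 to 0.76. On the low side, Abl1, the cytoplasmic tyrosine kinase, read 151 and 158 CPM in COH, 169 and 147 with nintedanib and 91.3 and 96.7 in OHSS (log2 fold change -0.73, SE 0.10), and Irak2, which relays interleukin-1 and Toll-like receptor signals, read 6.53 and 9.40 CPM in OHSS against 15.6 and 19.7 in COH and 14.98 and 16.8 with nintedanib. Arl5b, a small GTPase of vesicle traffic, had the largest log2 difference of the 30, -4.52 (SE 0.84, adjusted p = 0.66), but its reference was uneven, with 54.2 and 9.74 CPM in COH, 40.8 and 53.9 with nintedanib and 1.22 and 2.24 in OHSS. Ttc4, Cnppd1 and Inpp4a were lower by log2 fold changes of -1.25, -0.73 and -0.71.

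Rnf26, a ubiquitin ligase of the endoplasmic reticulum, also had IDs that pointed in opposite directions. The ID ENSMUSG00000053128 stood at 22.4 and 26.3 CPM in COH, 17.9 and 17.7 with nintedanib and 5.34 and 6.04 in OHSS (log2 fold change -1.89, SE 0.22). A further ID named Rnf26 in the table, Gm49380 in GENCODE M21, shares exon sequence on the same strand and stood at 2.95 and 1.61 CPM in COH, 0.416 and 0.218 with nintedanib and 5.21 and 10.6 in OHSS. Their sum was 25.4 and 27.9 CPM in COH, 18.3 and 18.0 with nintedanib and 10.5 and 16.6 in OHSS, so both OHSS libraries stayed lowest with a smaller gap. Near-identical copies, Gm9008 and Gm44166, add to the uncertainty of this gene. All 30 ranked genes were called by DESeq2, 0 of them by edgeR (adjusted p 0.079 to 0.77) and 0 by limma voom, and 15 of the 30 differed by less than 1 log2 unit.

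**Figure D1:**
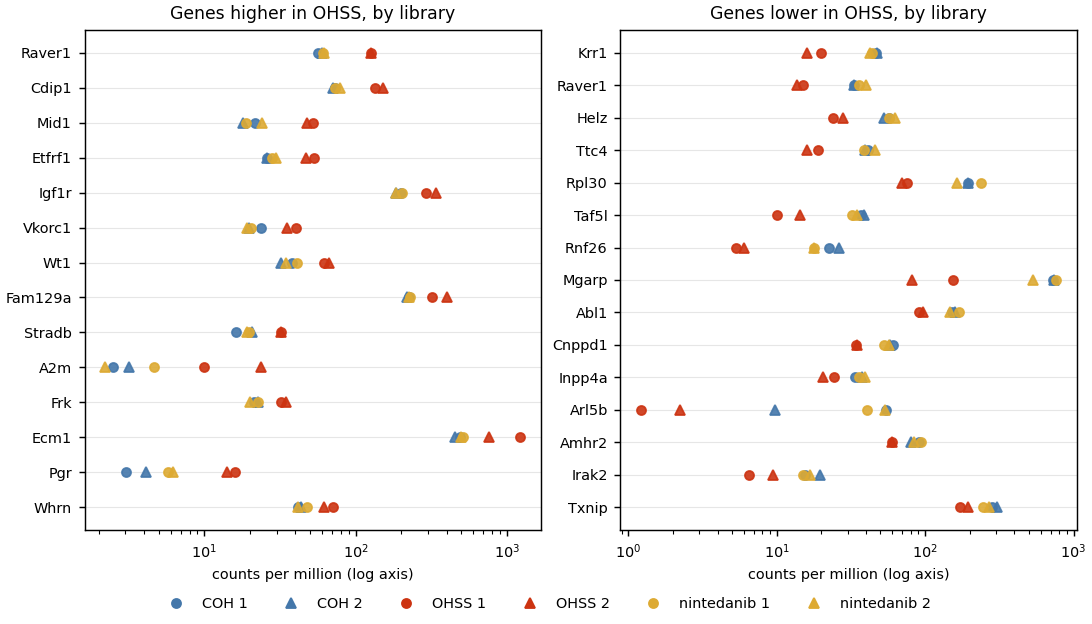
Level of 29 of the 30 ranked genes in every library (x axis, CPM on a log scale); circles are replicate 1 and triangles replicate 2 of each group, and the genes are ordered by p from the top. Both OHSS libraries (red) lie outside the 4 reference libraries for all 29, which the ranking required. The COH and nintedanib libraries lie close together except for Arl5b, Pgr and A2m, a closeness that the ranking by p favours.

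Gene lists of pathways and cell types gave 38 groups, which cover 478 different genes tested. The lists were chosen with earlier results of these data known, so their counts are descriptions and not tests. The list medians were above 0 for 17 and below 0 for 21, and the median over all genes was -0.01. Over all listed genes, 33 were higher and 21 lower at an unadjusted p below 0.05, and both OHSS libraries lay above the rest for 47 and below it for 40. Counts for each list are read against the shares of all genes given earlier.

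**Figure D2:**
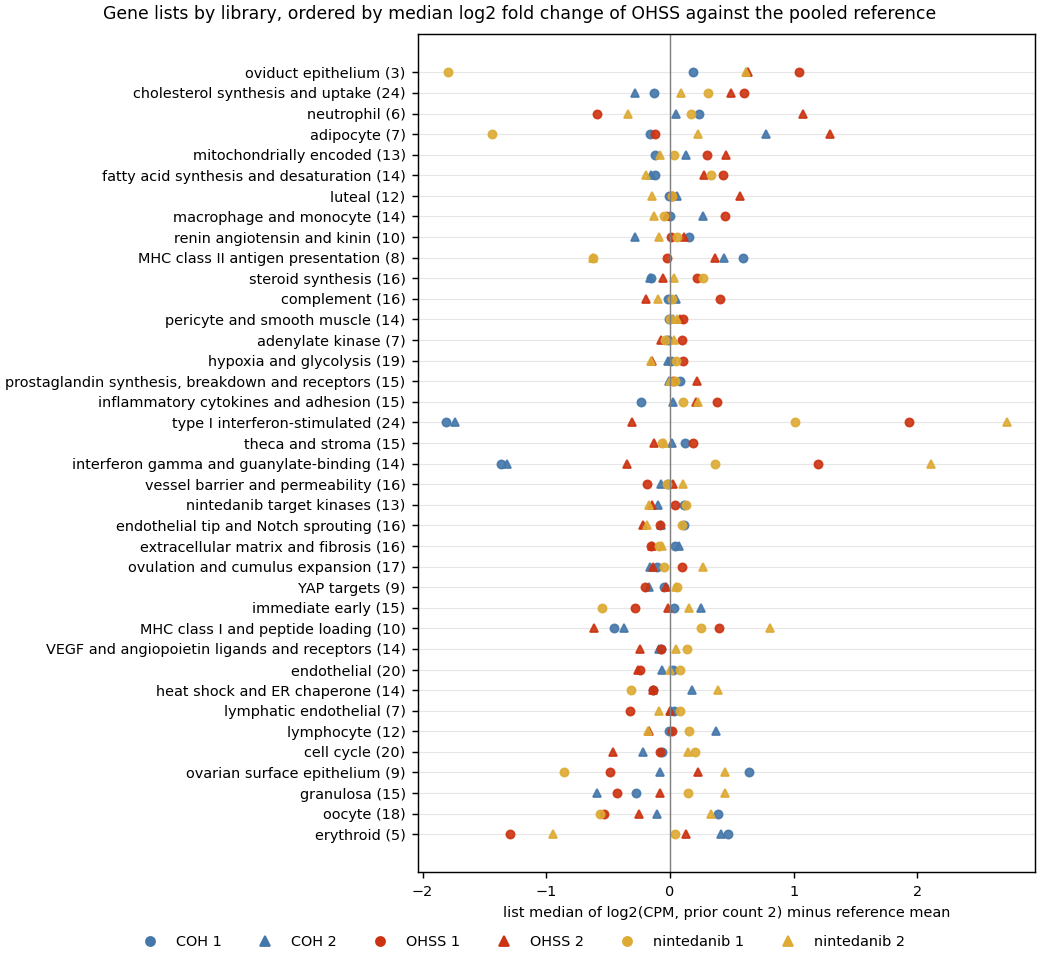
For each list (number of genes tested in brackets) the x axis gives, per library, the median over its genes of log2 CPM minus the gene's mean over the 4 reference libraries; colours are groups and symbols replicates. In the cholesterol, mitochondrial, pericyte, endothelial and matrix lists, and in the 3 oviduct genes, both OHSS medians lie outside the other 4, whereas in both interferon lists the COH libraries stand apart on the left.

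Genes of cholesterol synthesis and uptake leaned higher in untreated OHSS. Of the list's 24 genes, 24 had a higher mean in OHSS than in the pool, 13 were higher and 0 lower at an unadjusted p below 0.05, and both OHSS libraries exceeded the other 4 for 14. The median log2 fold change was 0.53, with list medians per library of 0.60 and 0.49 in OHSS, 0.31 and 0.09 with nintedanib and -0.13 and -0.28 in COH. DESeq2 called 5 members, Sqle, Lss, Msmo1, Nsdhl and Insig1. Leaving out OHSS replicate 2 lowered the count of 13 to 8, and the other 5 omissions gave 10 to 15.

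Members are taken in the order of the pathway. Hmgcs1, a synthase at the start of the mevalonate pathway, stood at 888 and 983 CPM in COH, 1112 and 963 with nintedanib and 1397 and 1278 in OHSS (log2 fold change 0.44, SE 0.12, adjusted p = 0.80), and both OHSS libraries were above the rest. In the steps from mevalonate to farnesyl diphosphate, Pmvk (31.0 and 26.9 CPM in OHSS against 14.9 to 23.4), Mvd (86.6 and 90.8 against 58.8 to 72.1) and Idi1 (274 and 236 against 93.3 to 175) stood above every reference library, while Mvk and Fdps overlapped it.

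From squalene to lanosterol, Sqle, squalene epoxidase, had 150.4 and 121 CPM in COH, 154 and 164 with nintedanib and 235 and 308 in OHSS (log2 fold change 0.88, SE 0.16, adjusted p = 0.66). Lss, which closes the ring to lanosterol, had 323 and 191 CPM in OHSS, 135 and 90.2 with nintedanib and 90.8 and 74.1 in COH (log2 fold change 1.40, SE 0.29, adjusted p = 0.78). For both, every OHSS value was above every other, and OHSS differed from nintedanib by 0.77 and 1.19 log2 units. Of the enzymes that trim lanosterol, Msmo1 stood at 356 and 319 CPM in OHSS against 159 and 182 in COH and 223 and 214 with nintedanib (log2 fold change 0.80, SE 0.15) and Nsdhl at 125 and 126 CPM in COH, 195 and 145 with nintedanib and 280.4 and 271 in OHSS (log2 fold change 0.90, SE 0.19). Cyp51 stood higher as well, at 602 and 504 CPM in OHSS against 217 to 497, its closest reference library being nintedanib replicate 1. Ebp exceeded the pool narrowly, with 62.7 and 74.2 against 48.8 to 59.5 CPM. The late enzymes Sc5d and Dhcr7, which act near the end of the pathway, overlapped: their log2 differences from COH were 1.26 and 0.85, and from nintedanib 0.45 and 0.05. Hsd17b7, an enzyme of the pathway that luteal cells also use for estradiol, was uneven, with 670.2 and 2349 CPM in OHSS against 415 to 1196.

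Control and transport genes of the pathway stood higher as well. Srebf2, which encodes SREBP2, stood at 281 and 286 CPM in COH, 278 and 261 with nintedanib and 339.6 and 389 in OHSS (log2 fold change 0.40, SE 0.10, adjusted p = 0.80), and in it COH and nintedanib were alike. Insig1, which holds SREBP in the endoplasmic reticulum and is itself an SREBP target, had 194 and 204 CPM in OHSS against 82.9 and 97.7 in COH and 124 and 121 with nintedanib (log2 fold change 0.90, SE 0.17). The sterol carrier Stard4 (97.2 and 107 CPM in OHSS against 55.2 to 81.3) was above the range of the reference as well. Relative to COH the list's median was 0.85 and relative to nintedanib 0.39, and within the pool both nintedanib libraries exceeded both COH libraries for 16 of 24 members (22.3% of all genes did so). No member was called in the pooled comparison.

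Promoters of the pathway were searched for the core of the sterol regulatory element, to which SREBP binds. The 9-letter core TCACNCCAC, on either strand (GTGGNGTGA), was found in 1.242% of the 32851 mouse promoters of RefSeq (GRCm38.p6, 250 bases before to 50 after a start) and in 1 of the 16 list members with a promoter in that table. The percentage is of promoters, whereas a member counts if any of its promoters matched, so the shares differ in unit. The member with a match, Hmgcs1, is shown because its promoter carries the core and its level stood highest in OHSS. The stretch lies at chr13:119690154-119690282 on the forward strand, and the capitals mark the core, whose match begins 137 bases before the start.
Hmgcs1 promoter: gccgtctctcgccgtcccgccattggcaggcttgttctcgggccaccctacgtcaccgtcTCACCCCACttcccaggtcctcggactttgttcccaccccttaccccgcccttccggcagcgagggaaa
A match describes these letters only, and says nothing of binding in these ovaries.

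Mitochondrially encoded transcripts, the subunits of the respiratory chain made inside the organelle, also stood higher. Of 13 members 13 had a higher mean in OHSS, 7 were higher and 0 lower at an unadjusted p below 0.05, both OHSS libraries exceeded the rest for 10, and the median log2 fold change was 0.38 (0.34 against COH, 0.37 against nintedanib). mt-Nd4l, of complex I, stood at 345 and 409.7 CPM in COH, 429.7 and 353 with nintedanib and 503 and 562 in OHSS (log2 fold change 0.47, SE 0.13), but a nuclear copy, Gm10222, is identical to it and makes that level uncertain. mt-Atp8, of ATP synthase, stood at 1487 and 1486 CPM in OHSS against 961 and 1172 in COH and 1127 and 1098 with nintedanib (log2 fold change 0.45, SE 0.12). mt-Cytb, of complex III, had 7491 and 7581 CPM in OHSS against 5525 to 6464, and mt-Nd5 had 3319.7 and 3867 against 2302 to 2868. mt-Nd2, mt-Nd3 and mt-Co3 overlapped the reference. mt-Atp6 went from 802 and 997 CPM in COH to 3500.1 and 4403 with nintedanib and 5454 and 5335 in OHSS, but its sequence is shared with the nuclear copy Gm10925, itself at 4291 to 5891 CPM, so that value is uncertain. The list is also a sign of RNA quality and handling, and its part in other results was not tested. Without OHSS replicate 2 the count of 7 became 1, and without COH replicate 1 it became 4.

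**Figure D3:**
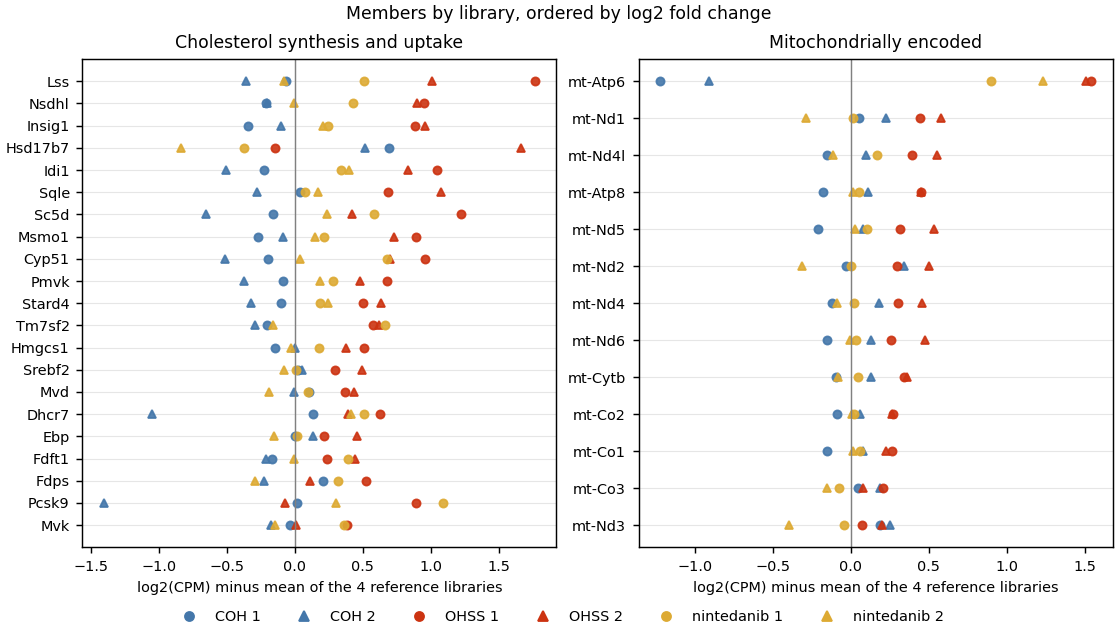
Each point is a library's log2 CPM minus the gene's mean over the 4 reference libraries (x axis, log2 units), for 21 of the 24 cholesterol genes and all 13 mitochondrial genes; red is OHSS, blue COH and yellow nintedanib. OHSS points sit to the right of the rest for 13 of the 21 and for 10 of 13 mitochondrial genes, with yellow points between red and blue in much of the left panel.

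Fatty acid synthesis and desaturation, which SREBP1 controls, leaned the same way. Of 14 genes 13 had a higher mean, 2 were higher and 0 lower at an unadjusted p below 0.05, 3 had both OHSS libraries above the rest, and the median was 0.26. Elovl5, a fatty acid elongase, stood at 820.3 and 916 CPM in COH, 983 and 626 with nintedanib and 1355 and 1313 in OHSS (log2 fold change 0.67, SE 0.19). Scd1, a desaturase, stood at 398 and 370.1 CPM in OHSS, 351 and 205 with nintedanib and 159 and 126 in COH (log2 fold change 0.87, SE 0.38), where nintedanib replicate 1 came close to OHSS. Without nintedanib replicate 1 the counts of 2 and 3 became 6 and 8, the latter with fewer libraries to clear, and the median 0.49. Acss2, which activates acetate, stood at 47.7 and 58.8 CPM against 27.6 to 46.0.

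For steroid synthesis itself the values depended on the OHSS library. Of 16 genes tested 10 had a higher and 6 a lower mean, 0 passed an unadjusted p of 0.05 in either direction, and the median was 0.10. Without OHSS replicate 2 the median was 0.19, with 11 of 17 higher. Without OHSS replicate 1 the median was -0.11, with 7 higher and 10 lower. Star, which brings cholesterol into the mitochondrion, overlapped, at 893 and 863 CPM in COH, 1484 and 1968 with nintedanib and 2722 and 1396 in OHSS. Cyp11a1 was the single member with both OHSS libraries above the rest, at 12309 and 12574 CPM in OHSS against 10928 and 10913 in COH and 11269 and 8771 with nintedanib (log2 fold change 0.25, SE 0.18, adjusted p = 0.85). Cyp17a1, the androgen-making enzyme of theca, spread from 214 to 2464 CPM within the pool around OHSS values of 1230.5 and 865. Cyp19a1, aromatase, had 39.0 and 41.5 CPM in OHSS between 27.4 and 17.8 in COH and 62.1 and 122 with nintedanib. Scarb1, the receptor for high-density lipoprotein, had 3733 and 2782 CPM against 1646 to 2876.

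Markers of the steroid-making cells gave mixed values beside these groups. In the luteal list 9 of 12 members had a higher mean, 2 at an unadjusted p below 0.05, with a median of 0.23 that became -0.02 without OHSS replicate 2. Sfrp4, a secreted Wnt antagonist of luteal cells, stood at 3789 and 4218 CPM in COH, 3633 and 3088 with nintedanib and 4928 and 8746 in OHSS (log2 fold change 0.89, SE 0.25), and Prlr, the prolactin receptor, at 1046 and 1605 CPM in OHSS against 855 and 927 in COH and 1030.2 and 787 with nintedanib (log2 fold change 0.56, SE 0.20). OHSS replicate 2 held the highest value of both. Lhcgr, the receptor for luteinizing hormone, overlapped (531 and 686 against 358 to 657 CPM). The 5 luteal markers summed to 7749 and 13768 CPM in OHSS and 6315 to 7693 in the reference. Sfrp4 alone gave 4928 and 8746 CPM of the OHSS sums and 3088 to 4218 CPM of the reference sums, so the sums mainly follow that gene. The part of the luteal markers in the cholesterol values was not tested. In the granulosa list 14 of 15 members had a lower mean in OHSS, with a median of -0.41, 0 genes at an unadjusted p below 0.05 and 1 with both OHSS libraries below the rest, Foxl2 (240.3 and 236 against 247 to 299 CPM). That median was 0.09 against COH and -0.56 against nintedanib, and the 6 granulosa markers summed to 2649 and 2695 CPM in COH, 4569 and 4319 with nintedanib and 2936 and 2871 in OHSS. Without nintedanib replicate 2 the granulosa median became -0.11, and without OHSS replicate 1 it became -0.19. Theca and stroma genes divided into 7 higher and 8 lower, with Wt1 higher and Col1a1 lower at an unadjusted p below 0.05.

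Oocyte and cell-cycle genes had lower means almost throughout, with 1 member of each list at an unadjusted p below 0.05. For oocytes 17 of 18 members were lower, with a median of -0.44, 1 at an unadjusted p below 0.05 and 2 with both OHSS libraries below the rest. The gene at that p was Kit, the receptor for stem cell factor, at 35.0 and 38.1 CPM in COH, 30.2 and 41.7 with nintedanib and 20.8 and 26.6 in OHSS (log2 fold change -0.61, SE 0.17). Bcl2l10, an oocyte survival factor, stood at 7.23 and 9.70 CPM in OHSS against 18.1 and 11.6 in COH and 9.71 and 21.2 with nintedanib. Leaving out nintedanib replicate 1, which was itself low in oocyte genes, raised these counts to 6 and 11, and leaving out OHSS replicate 2 raised the latter to 10. The 6 oocyte markers summed to 150.2 and 181.8 CPM in OHSS and 140.4 to 266.0 in the reference, which overlap. For the cell cycle 19 of 20 members were lower, with a median of -0.24, 1 at an unadjusted p below 0.05 (Ccnb1, the mitotic cyclin B, whose 5 near-identical copies could share its reads, 20.4 and 20.9 against 25.9 to 35.8 CPM) and 5 with both OHSS libraries below the rest. Of the others, Mcm3, of the replication helicase, had 32.6 and 28.5 against 35.4 to 55.1 CPM and Birc5, of the chromosomal passenger complex, 21.0 and 19.4 against 21.7 to 28.2. The cell-cycle median was -0.09 against COH and -0.41 against nintedanib. Against the pool the median became -0.46 without OHSS replicate 1, -0.11 without OHSS replicate 2 and -0.35 without COH replicate 2. Without COH replicate 2 the count of 5 became 10, but with fewer libraries to clear.

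Endothelial genes leaned lower in untreated OHSS. Of 20 members 17 had a lower mean, 6 were lower and 0 higher at an unadjusted p below 0.05, both OHSS libraries were below the rest for 8, and the median was -0.18 (-0.20 against COH and -0.27 against nintedanib). Cldn5, a claudin that seals endothelial tight junctions, stood at 73.0 and 73.2 CPM in COH, 56.6 and 63.3 with nintedanib and 43.7 and 50.1 in OHSS (log2 fold change -0.51, SE 0.14, adjusted p = 0.80). Cdh5, the cadherin of endothelial adherens junctions, stood at 121 and 135 CPM in OHSS against 143 and 161 in COH and 178 and 207 with nintedanib (log2 fold change -0.43, SE 0.16, adjusted p = 0.80). Both junction genes had their lowest values in OHSS, and their order in the pool differed, Cldn5 being higher in COH and Cdh5 with nintedanib. Tie1, an orphan receptor that modulates angiopoietin signalling, stood at 51.0 and 54.0 CPM in OHSS, 69.9 and 75.0 with nintedanib and 67.2 and 66.1 in COH (log2 fold change -0.41, SE 0.10), and Tek, the angiopoietin receptor TIE2, at 39.3 and 41.7 CPM in COH, 47.9 and 45.4 with nintedanib and 34.1 and 36.8 in OHSS (log2 fold change -0.30, SE 0.12). Vwf, the clotting factor that endothelial cells store, stood at 7.62 and 6.70 CPM in OHSS against 15.2 and 10.1 in COH and 12.8 and 21.6 with nintedanib (log2 fold change -1.06, SE 0.32). Ecscr, a surface protein of endothelial migration, had 10.6 and 10.8 CPM against 12.5 to 14.98, and Esam, an adhesion molecule, 66.0 and 55.3 against 68.2 to 78.1.

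Other pan-endothelial genes did not share that gap. Pecam1 had 108 and 106 CPM in COH, 106 and 98.8 with nintedanib and 74.3 and 112 in OHSS, with only OHSS replicate 1 below the pool. Emcn, Eng, Egfl7, Erg and Sox17 had log2 fold changes of -0.13 to 0.06, and all of them overlapped. Clec14a went the other way, with a log2 fold change of 0.38, the highest of the 3 list members with a higher mean in OHSS. It overlapped as well, and its value ranged from 0.0098 to 0.69 with each library left out. The 5 endothelial markers summed to 376.2 and 427.5 CPM in OHSS and 485.2 to 535.1 in the reference. The count of 6 became 2 without OHSS replicate 1 and 3 without COH replicate 2. Among vessel barrier genes, which share Cldn5 and Cdh5 with the list just described, 3 of 16 were lower and 1 higher at an unadjusted p below 0.05, and leaving out either OHSS library left 1 lower. Nos3, which makes the dilator nitric oxide, had 33.5 and 32.9 CPM against 39.6 to 51.9, whereas S1pr1, a receptor that strengthens the barrier, stood higher, at 73.3 and 95.0 CPM in OHSS, 53.7 and 37.1 with nintedanib and 58.8 and 60.6 in COH (log2 fold change 0.68, SE 0.22).

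Levels of Vegfa and of the VEGF receptor genes overlapped between untreated OHSS and the pool. Vegfa, the ligand, stood at 103 and 89.7 CPM in COH, 134 and 121 with nintedanib and 167 and 111 in OHSS (log2 fold change 0.31, SE 0.22, adjusted p = 0.85). OHSS replicate 1 was the highest of all libraries, but OHSS replicate 2 lay below both nintedanib libraries. Kdr, the main signalling receptor, stood at 85.9 and 76.4 CPM in OHSS against 94.1 and 81.5 in COH and 103 and 91.3 with nintedanib (log2 fold change -0.19, SE 0.12), Flt1, which binds VEGF tightly and signals little, at 50.2 and 42.5 CPM in OHSS, 57.5 and 48.3 with nintedanib and 43.4 and 40.0 in COH (log2 fold change -0.03, SE 0.17), and Flt4, the lymphatic receptor, at 44.9 and 45.1 CPM in COH, 56.1 and 48.0 with nintedanib and 38.7 and 46.6 in OHSS (log2 fold change -0.19, SE 0.14). Of the 14 ligands and receptors of the VEGF and angiopoietin families 12 had a lower mean, with a median of -0.16. Vegfc, a ligand of Flt4, was below the rest in both OHSS libraries by a small margin, 10.2 and 11.4 against 12.7 to 14.2 CPM. With Tie1 and Tek it made the 3 members that did not overlap. That count became 5 without COH replicate 2, but with fewer libraries to clear. The median became -0.22 without OHSS replicate 1, and -0.09 without OHSS replicate 2 and without nintedanib replicate 1. Tie1 and Tek were the 2 at an unadjusted p below 0.05. Both also belong to the endothelial list described earlier, so the counts of the 2 lists share these genes.

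Kinases that nintedanib inhibits gave 4 higher and 9 lower means over 13 genes. Pdgfra (225 and 179 against 166 to 234 CPM), Pdgfrb (171 and 237 against 139 to 257), Fgfr1 (75.7 and 56.0 against 57.7 to 71.7), Fgfr2 (99.8 and 56.3 against 51.6 to 68.6) and Fgfr3 (10.0 and 8.61 against 5.50 to 14.4) all overlapped the pool. Src, a non-receptor kinase, was the member with both OHSS libraries lowest, at 58.3 and 33.9 CPM in OHSS against 71.1 and 74.7 in COH and 65.7 and 60.2 with nintedanib.

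**Figure D4:**
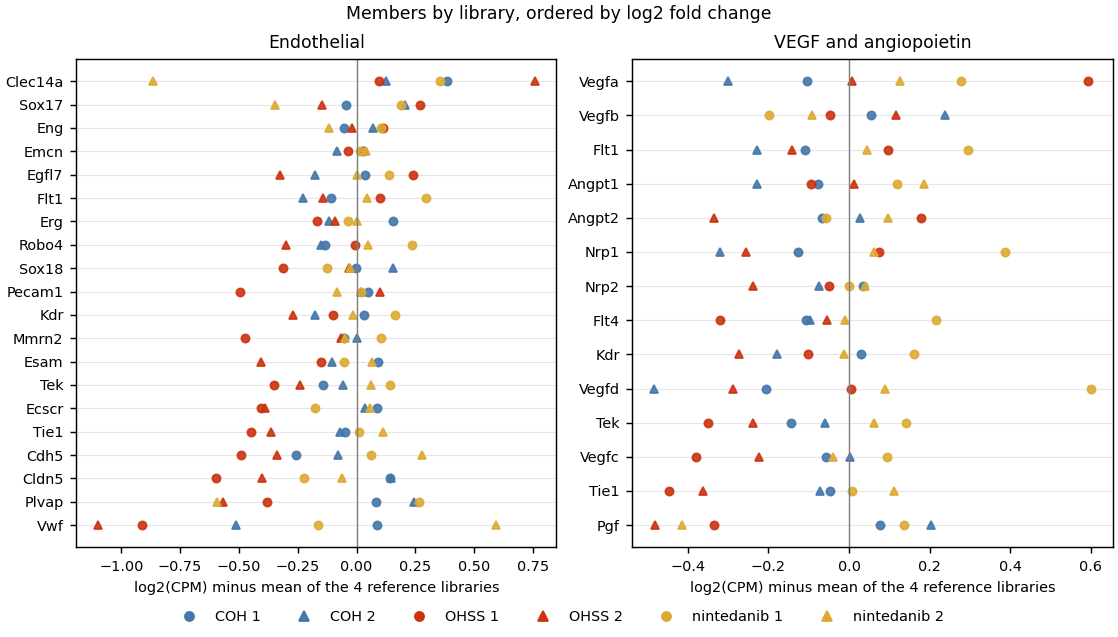
Library values of the endothelial list and of the VEGF and angiopoietin list, as log2 CPM minus the mean of the 4 reference libraries (x axis, log2 units), members ordered by log2 fold change. Both red OHSS points lie left of all others for 8 of 20 endothelial genes and 3 of 14 VEGF and angiopoietin genes, and Vegfa has 1 OHSS point far to the right and the other near 0.

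Genes of ovulation, inflammation and tissue matrix were apart for a few members each. Of 17 ovulation genes 2 were higher and 2 lower at an unadjusted p below 0.05, and 4 were higher without nintedanib replicate 2. Pgr, given earlier, and Ptger4, a prostaglandin E receptor (18.9 and 10.7 against 7.50 to 9.97 CPM), were higher. Ptx3 and Vcan, both of the matrix around the ovulated oocyte, were lower, Ptx3 at 5.62 and 4.24 CPM in COH, 4.02 and 3.09 with nintedanib and 1.29 and 1.58 in OHSS (log2 fold change -1.56, SE 0.32) and Vcan at 99.8 and 102 CPM in OHSS against 138 and 179 in COH and 126 and 187 with nintedanib (log2 fold change -0.64, SE 0.19). Of 15 inflammatory genes Cxcl2, a neutrophil attractant near the detection floor, was higher at an unadjusted p below 0.05, with 1.16 and 1.68 against 0.562 to 0.748 CPM. Il6 stood at 0.173 to 0.405 CPM in the reference and 0.225 and 0.330 in OHSS. Of 16 matrix genes 1 was higher and 2 lower at an unadjusted p below 0.05, and 5 had both OHSS libraries below the rest. Among these were the main fibrillar collagens Col1a1 (727 and 599 CPM in OHSS, 863 and 806 with nintedanib and 920.1 and 823 in COH) and Col3a1 (1097 and 909 against 1155 to 1418 CPM) and fibronectin, Fn1 (201 and 208 against 221 to 289). Postn, a matricellular protein, stood higher (63.8 and 54.1 against 18.6 to 42.7).

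Immediate early genes, which respond to stimuli and to tissue handling within minutes, included large but uneven differences. Of 15 members 3 were lower and 0 higher at an unadjusted p below 0.05, and 4 had both OHSS libraries below the rest. Fos stood at 116 and 179.9 CPM in COH, 58.2 and 228 with nintedanib and 29.5 and 40.8 in OHSS (log2 fold change -2.05, SE 0.56) and Fosb at 6.14 and 11.3 CPM in OHSS against 45.2 and 28.2 in COH and 22.0 and 71.0 with nintedanib (log2 fold change -2.26, SE 0.56). Nintedanib replicate 2 was the highest of all libraries for both and nintedanib replicate 1 the lowest of the reference, so the pool was widely spread. Egr1 overlapped, at 164 and 229 against 158 to 396 CPM. Without OHSS replicate 1 the count of 3 became 1, and without nintedanib replicate 1 it became 5. Of 14 heat shock and chaperone genes 0 passed an unadjusted p of 0.05 in either direction, with a median of -0.19. The replicate block and DESeq2 each gave 3 lower, and the fit without the filter and scaling by library size each gave 2. Leaving out nintedanib replicate 1 gave 5, with 7 below the rest in both OHSS libraries, where fewer libraries had to be cleared. Without nintedanib replicate 2 that median was -0.06.

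For some genes OHSS and nintedanib were both far from COH. Tmem170b, a membrane protein, stood at 1.12 and 1.296 CPM in COH, 35.7 and 39.1 with nintedanib and 42.6 and 49.0 in OHSS. Both OHSS libraries were above the other 4, yet the spread of the pool left a log2 fold change of 1.25 with an SE of 1.35 (adjusted p = 0.90). Ak4, an adenylate kinase of the mitochondrial matrix with a near-identical pseudogene, Ak3l2-ps, that could share its reads, stood at 14.7 and 13.8 CPM in OHSS against 1.60 and 1.61 in COH and 14.5 and 14.9 with nintedanib, the same level in OHSS and with nintedanib (log2 fold change against the pool 0.81, SE 0.97). Tmem170b was called when the pooled contrast was taken from the fit of 3 groups, whose error does not include the difference between COH and nintedanib.

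Type I interferon-stimulated genes divided the pool most. Of 24 members 11 had a higher and 13 a lower mean in OHSS, 0 passed an unadjusted p of 0.05, 0 had both OHSS libraries outside the rest, and the median was -0.02. That even split did not hold under other settings: 23 were higher with limma voom (median 0.84), 20 with the replicate block (0.26) and 24 in the fit of 3 groups (1.12). It was 24 without nintedanib replicate 2 (1.33) and 22 without OHSS replicate 2 (0.68), but 0 without OHSS replicate 1 (-1.46) and 2 without either COH library (-0.35 and -0.36). The same list had a median of 3.18 against COH and -0.88 against nintedanib, and both nintedanib libraries exceeded both COH libraries for 24 of 24 members. Its library medians were -1.81 and -1.74 (COH), 1.93 and -0.31 (OHSS) and 1.01 and 2.72 (nintedanib). Isg15, a ubiquitin-like modifier, stood at 2.89 and 2.31 CPM in COH, 37.2 and 175 with nintedanib and 104 and 11.4 in OHSS (log2 fold change 0.08, SE 1.73). Ifit1, which binds viral RNA, stood at 136 and 20.4 CPM in OHSS, 44.3 and 515 with nintedanib and 1.60 and 1.82 in COH (log2 fold change -0.85, SE 2.20). Stat2, of the factor that switches these genes on, stood at 139 and 40.1 CPM in OHSS against 20.1 and 15.8 in COH and 62.1 and 147 with nintedanib. In each the COH libraries were low and alike, and both OHSS libraries lay inside a reference that spanned from COH to nintedanib replicate 2.

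Promoters of the interferon genes were searched in the same way. The core of the interferon-stimulated response element, AAANNGAAA on either strand (TTTCNNTTT), occurred in 10.551% of the 32851 RefSeq promoters and in 13 of the 18 members with a promoter in that table. Here too the percentage is of promoters, whereas a member counts if any of its promoters matched, so the shares differ in unit. The Isg15 promoter is shown because its member leads the list and carries 3 overlapping matches, which the capitals mark together, the first beginning 77 bases before the start. The stretch lies at chr4:156200819-156200955 (GRCm38.p6) and is written 5′ to 3′ on the reverse strand, the strand of the gene.
Isg15 promoter: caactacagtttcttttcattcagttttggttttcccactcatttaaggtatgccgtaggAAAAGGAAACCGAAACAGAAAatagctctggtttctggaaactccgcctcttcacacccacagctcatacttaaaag
The letters describe this window and not a site shown to be used in these ovaries.

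**Figure D5:**
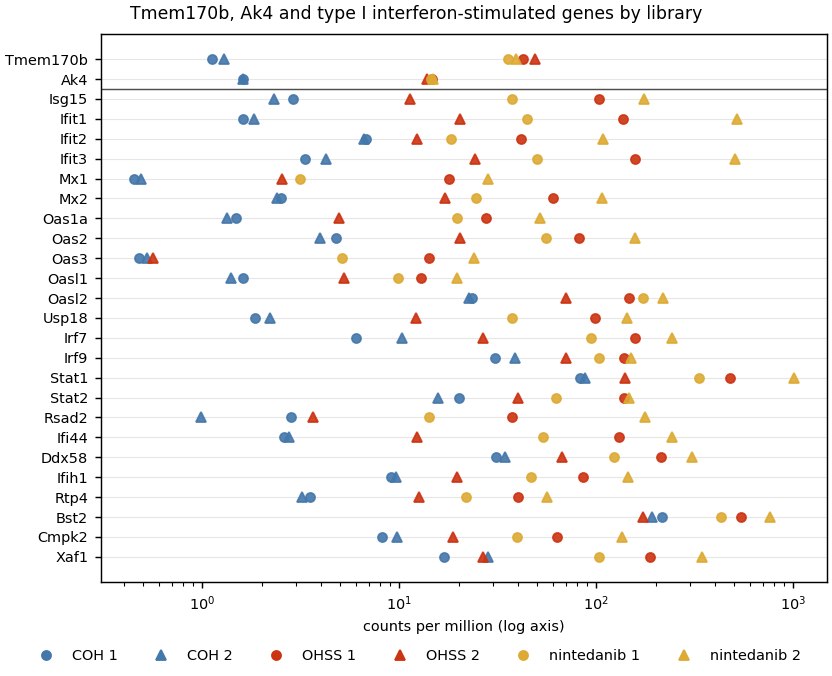
Level in CPM (log axis) of Tmem170b, Ak4 (above the line) and the 24 type I interferon-stimulated genes in every library. Blue COH points lie at the left for nearly every gene and red OHSS points fall among the yellow nintedanib points or between blue and yellow, except that OHSS replicate 2 lies at or below a COH library for Bst2 and Xaf1.

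Other antigen and interferon lists divided the pool as well, but not all in the same direction. The median log2 difference of nintedanib from COH was 2.93 for the interferon gamma list, 0.87 for MHC class I and -1.01 for MHC class II. The interferon gamma list had 6 members higher and 8 lower (median -0.04), MHC class I genes 2 and 8 (median -0.15) and MHC class II genes 5 and 3 (median 0.12), each with 0 genes at an unadjusted p below 0.05. These splits turned as well. The interferon gamma list had 14 higher without nintedanib replicate 2 (median 1.14), 12 without OHSS replicate 2, with limma voom, with the block and in the fit of 3 groups, but 1 without OHSS replicate 1 (-0.89). MHC class I had 10 higher without OHSS replicate 2 (0.28), 7 without nintedanib replicate 2 (0.20) and 0 without OHSS replicate 1 (-0.69). MHC class II had 2 higher without OHSS replicate 2 (-0.21), and 8 without either COH library (0.28 and 0.29). For MHC class II the median was -0.35 against COH and 0.71 against nintedanib.

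The remaining lists held few members apart. Medians were 0.22 for macrophages and monocytes, 0.44 for neutrophils (6 of 11 genes tested), -0.21 for lymphocytes, -0.51 for erythroid genes (5 of 7 tested), 0.43 for adipocytes, 0.63 for the 3 oviduct genes tested, -0.29 for ovarian surface epithelium, 0.04 for pericytes and smooth muscle, -0.19 for lymphatic endothelium and -0.11 for endothelial tip cells. Complement genes had a median of 0.08, renin, angiotensin and kinin genes 0.14, hypoxia and glycolysis genes 0.03, prostaglandin genes 0.01, inflammatory genes 0.01, YAP targets -0.14 and adenylate kinases 0.03. Several medians rested on 1 OHSS library. Leaving out OHSS replicate 1 or replicate 2 gave -0.10 or 0.42 for macrophages, 1.06 or -0.72 for neutrophils, 0.04 or -1.40 for erythroid genes, 0.99 or -0.90 for adipocytes, 0.09 or -0.62 for surface epithelium, -0.19 or 0.36 for complement and 0.01 or -0.33 for lymphatic endothelium. The lymphocyte median was 0.05 without COH replicate 2, the adipocyte median 0.03 without nintedanib replicate 1, and the surface epithelium median 0.06 without COH replicate 1. With all libraries in, between 0 and 2 genes of each of these lists passed an unadjusted p of 0.05 in either direction. The 4 erythroid markers summed to 50.6 and 143.2 CPM in OHSS and 71.0 to 183.8 in the reference, and the 3 macrophage markers to 197.7 and 137.2 against 119.6 to 147.8, so both overlapped. Their part in the values given for other groups was not tested.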

How the data were processed

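Ovary RNA of ICR mice was measured in 6 libraries, and the authors deposited unnormalized gene counts, per the file headers. Per the submitters' processing notes, the tools included HISAT2 2.1.0, Trimmomatic 0.36 and StringTie 1.3.3b, and the build was mm8. Which program counted reads, with which annotation and strand setting, is not given in the sources used here. Deposited counts equal 144 to 148% of read pairs, or 72.1 to 74.0% of single reads, so some pairs were counted more than once. These ratios do not show whether any read was given to several genes. Reads of overlapping or near-identical genes could be split. Of 51826 gene IDs, 99.628% are in GENCODE M21 (GRCm38); overlaps and copies were read there, and no gene coordinates are given.

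Groups and replicate numbers came from the sample titles. filterByExpr in edgeR 4.0.16 (R 4.3.3) kept 19027 genes, scaled by TMM. OHSS (2 libraries) was compared with the other 4 by a two-sided quasi-likelihood F test (4 residual and 2.42 prior degrees of freedom), with Benjamini-Hochberg adjustment over all genes and calls at 0.05; the 3 paired comparisons came from a fit of 3 groups. Counts per 1000000 (CPM) use the scaled library sizes, and the SE follows from F. Library medians of lists use log2 CPM with a prior count of 2. Alternatives were DESeq2 1.42.0, limma voom 3.58.1, other scalings and filters, a replicate block, a robust prior and each library left out. Depth was 28498435 to 34716751 counts, and OHSS had 2 libraries.

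Members and lists (38 lists, 503 genes, of which 2 are not in the table and 23 were too low to test) were chosen with earlier results of these data known. Named genes are the 15 per direction of smallest p with at least 5 CPM, both OHSS libraries outside the rest and no predicted or pseudogene name, a fixed set (Vegfa, the receptors that nintedanib inhibits, steroid and endothelial markers, Tmem170b and Ak4) and up to 5 of smallest p per list; other genes were named after their values were seen. Samples with equal replicate numbers did not deviate together (correlations of -0.00, 0.05 and -0.00), so the numbers were not taken as pairs. Promoter sequences are RefSeq's (GRCm38.p6). Some members are not reported here.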

Additional observations from a re-analysis of the deposited data

Results flagged for a closer look

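Among the 4 reference libraries, 136 genes and 38 list medians were checked for a library far from the other 3, and 7 were found; about 1 in 20 such groups is found by chance. Mgarp was lowest in nintedanib replicate 2, at 529.9 CPM, which still lay far above both OHSS libraries. Arl5b was lowest in COH replicate 2, at 9.74 CPM, and that library brought the reference closest to OHSS. Cyp11a1 was lowest in nintedanib replicate 2, at 8771 CPM, and Ptgir, the prostacyclin receptor, was lowest in the same library, at 0.686 CPM. Tm7sf2, a sterol reductase, was highest in nintedanib replicate 1, at 106.7 CPM, above both OHSS libraries. Fn1 was lowest in COH replicate 1, at 221 CPM. The list median of fatty acid synthesis and desaturation was highest in nintedanib replicate 1, at 0.33 log2 units above the reference mean, and overlapped OHSS.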

How the results depend on the processing

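With 2 libraries on one side, a call rests on very few values. The count of 0 called genes in OHSS against the pool held under RLE, upper-quartile and library-size scaling, both filters, limma voom, the replicate block, the robust prior and an added fold threshold of 1 log2 unit. It was 123 with DESeq2, 1 (Tmem170b) as a contrast in the fit of 3 groups and 0 to 2 with each library left out. OHSS against COH gave 2 calls, 4 without the filter, 348 with DESeq2, 0 with limma voom, 1 with the replicate block and 0 to 2 with a library left out. OHSS against nintedanib gave 1 call, 2 without the filter, 213 with DESeq2, 0 with the replicate block and 0 to 30 with a library left out, the 30 without nintedanib replicate 1. Nintedanib against COH gave 5 calls, 436 with DESeq2, 2 with limma voom, 2 with the replicate block and 0 to 53 with a library left out, the 53 again without nintedanib replicate 1. The cause of these shifts was not tested.

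All 30 ranked genes kept their direction under every alternative that kept them. Their ranking required both OHSS libraries outside the rest, so leaving a library out could not turn it. Direction turned for 13 other named genes, all uncalled and most near 0. For Fgfr1 the log2 fold change of -0.00 became 0.0124 with RLE and 0.0125 with DESeq2. Isg15 (0.08) was -0.00598 with library size only. Ifit1 (-0.85) was 1.74 with limma voom, 0.70 with the replicate block and 1.84 in the fit of 3 groups. With each library left out the log2 fold changes ranged from -0.22 to 0.19 for Fgfr1, -2.24 to 2.03 for Isg15, -2.76 to 2.30 for Ifit1, -0.59 to 1.45 for Stat2, -0.34 to 0.15 for Pdgfrb, -0.0824 to 0.22 for Pdgfra, -0.14 to 0.67 for Fgfr2, -0.22 to 1.16 for Cyp17a1, -0.80 to 0.17 for Cyp19a1, -0.50 to 0.11 for Pecam1, -0.14 to 0.0791 for Flt1, -0.00816 to 0.38 for Lhcgr and -0.28 to 1.55 for Hsd17b7. List medians moved by more than the spread between libraries in 13 of 38 lists without OHSS replicate 1 and in 14 without OHSS replicate 2, and in at most 8 under any other alternative.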

Other observations

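Some transcripts outside the naming rule, chosen after their values were seen, stood apart in one group. Gm44503, a predicted gene, had 2.89 and 1.95 CPM in OHSS and 0.104 to 0.125 CPM in the other 4 libraries, the smallest p of all genes tested. Gm6472, also predicted, had 52.9 and 44.5 CPM in OHSS against 110.2 to 153.5. Rpsa-ps10, a pseudogene of a ribosomal protein, had 8.78 and 5.81 CPM in OHSS and 10.99 and 11.9 in COH, but 346 and 374 with nintedanib.

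Within the OHSS pair, Sh3pxd2a, a scaffold protein of podosomes, had 109.8 CPM in replicate 1 and 2.57 in replicate 2, with 99.7 to 111.5 in the reference. Zfx, a zinc finger transcription factor, had 63.5 and 6.96 CPM in OHSS and 59.5 to 66.6 in the reference. Pcdhga5, a protocadherin, had 61.6 and 3.30 CPM in OHSS and 2.22 to 3.09 in the reference. In these 3 genes 1 OHSS library stood apart from the other 5 libraries.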
